A study of Mus musculus
Mus spretus with 18 samples.

Results

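Heart was compared with kidney in female F1 hybrid mice bred from a C57BL/6J mother and a SPRET/EiJ father, killed at 8 weeks of age. Each organ gave 2 bulk polyadenylated RNA libraries, so 4 of the 18 libraries of the series were compared, and every library carried the same untreated F1 genotype with 1 allele of each strain. Both organs hold many cell types. By the study's methods the organs came from 2 animals, so heart and kidney share them, but no source ties a replicate number to an animal, and the p-values below measure only the spread between 2 libraries of an organ. Of 19206 skipped exon events counted in both organs, 18669 were autosomal and 17310 in 7057 genes had 20 or more junction reads in all 4 libraries, and these were kept. The fewest reads lay between 20 and 29 for 466 of the kept events and between 10 and 19 for 560 of the events just outside the limit. Gene expression was compared as TPM, a read count scaled for transcript length and library size, for 15803 genes with a mean of at least 1 TPM over the 4 libraries.

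Heart and kidney are both densely packed with mitochondria, and they use them for different work. Cardiomyocytes burn fatty acids to drive contraction of the sarcomere and the cycling of calcium, whereas the epithelial cells of the nephron spend ATP on moving salt, glucose and other solutes and carry peroxisomes, gluconeogenesis and amino acid metabolism alongside. Muscle and epithelium are also known for alternative exons that alter the same proteins in each tissue, placed by RNA-binding proteins such as Rbm20, Rbm24, Rbfox, Mbnl and Qk in muscle and Esrp1 and Esrp2 in epithelia. A skipped exon is summarised by its percent spliced in (PSI), given here as a fraction between 0 for always skipped and 1 for always included.

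The organ labels were checked against marker genes. The 5 cardiomyocyte markers, including Actc1, the cardiac actin, summed to 54051 and 54132 TPM in heart and to 2.27 and 2.00 TPM in kidney. The 5 proximal tubule markers, led by the androgen-regulated kidney protein gene Kap, summed to 52884 and 58311 TPM in kidney and to 0.455 and 0.679 TPM in heart. Both organs thus carried their own markers, and the atrial list, led by the natriuretic peptide gene Nppa, summed to 7368 and 7483 TPM in heart. Markers of several other cell types also differed, where among all genes tested 12.8% were called higher in heart and 29.8% higher in kidney, at an adjusted p under 0.05 by limma and a log2 difference of at least 1. Endothelial markers summed to 543 and 531 TPM in heart against 212 and 210 TPM in kidney, and 5 of 6 were called higher in heart. Fibroblast markers, led by Dcn, summed to 886 and 1024 TPM against 225 and 243 TPM, and 3 of 5 were called higher in heart. Erythroid genes, led by Hbb-bs, summed to 3694 and 4653 TPM against 887 and 1033 TPM, and 5 of 6 were called higher in heart. The sixth, Slc4a1, an anion exchanger that the collecting duct also expresses, was called higher in kidney. Adipocyte markers summed to 88.1 and 120 TPM in kidney against 16.6 and 34.6 TPM in heart, and 4 of 4 were called higher in kidney (1 of 4 without kidney replicate 2 and 2 of 4 without kidney replicate 1). Podocyte markers were called higher in kidney in 4 of 5 cases and hepatocyte markers in 3 of 3. Of the smooth muscle markers 0 of 5 were called, at a median log2 difference of 0.12 (2 of 5, higher in heart, after median ratio scaling), and of the markers of macrophages and other leukocytes 1 of 5 was, as higher in heart. The part of these cells in the results was not tested, and in bulk tissue fewer cells of a type and less RNA per cell cannot be told apart.

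Kidney replicate 2 stood apart in RNA of the adrenal gland, which lies on the kidney. The 5 adrenal cortex markers summed to 1.01 and 1.27 TPM in heart, to 13.0 TPM in kidney replicate 1 and to 2627 TPM in kidney replicate 2. The most abundant was Hsd3b1, a steroid dehydrogenase, at 11.2 TPM in kidney replicate 1 and 934 TPM in kidney replicate 2. Cyp11b1, the cortical 11-beta-hydroxylase, was listed at 0 in both hearts, at 0.0102 TPM in kidney replicate 1 and at 423 TPM in kidney replicate 2. Genes of the adrenal medulla were raised in the same library, with Chga, a granin of chromaffin granules, at 0.0776 and 76.5 TPM. The junction reads of adrenal cortex genes numbered 184 in the first and 142289 in the second listed kidney replicate. Among the tested genes 84 were at least 4-fold higher in kidney replicate 2 than in replicate 1 and 13 the other way, beside 87 that lay 4-fold apart between the hearts. Counts of called events and of the gene lists were therefore also taken without this library. Of the exon events followed one by one, 2 were weaker without it and are not marked below.

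The kidney libraries held somewhat more junction reads, and sequencing depth itself was not measured here. The libraries held 87332952 and 84921835 junction reads in heart and 94854222 and 95702534 in kidney over all events of each organ's table, and the tested events had medians of 574 and 574 reads in heart and 681 and 685 in kidney. At an adjusted p under 0.05 and a difference in mean PSI of at least 0.1, 737 events (4.26% of those tested) had higher inclusion in heart and 668 (3.86%) had higher inclusion in kidney, 8.12% in all. The test was a quasi-binomial model of the junction counts with a moderated dispersion and Benjamini-Hochberg adjustment over all 17310 events. Without kidney replicate 2 the counts were 667 and 537, with 1161 events in common with the 1405 called from all 4 libraries. With list position as a replicate block they were 518 and 358. With events near a PSI of 0 or 1 left out, the same model called 851 and 878 of 4751 events, so that kidney had the larger count. With limma on the logit of PSI over all 17310 events none passed, with 689 and 604 at an unadjusted p under 0.05. Once events near a PSI of 0 or 1 were left out, 687 and 625 passed, an alternative chosen after seeing the data. Between organs the median absolute difference of a called event was 0.275, while replicates of the same event differed by 0.0305 in heart and 0.0177 in kidney. All 1405 called events had replicates that did not overlap between organs, as did 44.9% of all tested events. Most exons hardly moved, since 68.4% of the tested events had a mean PSI above 0.9 in both organs.

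Larger changes were more often gains of inclusion in heart. Counted once per exon, 665 of 15815 exons (4.2%) were called higher in heart and 584 (3.69%) higher in kidney. At a difference of at least 0.5 the counts were 198 and 69, and at 0.8 or more they were 38 and 14. The called events lay in 967 genes, of which 92 had exons moving in both directions.

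**Figure D1:**
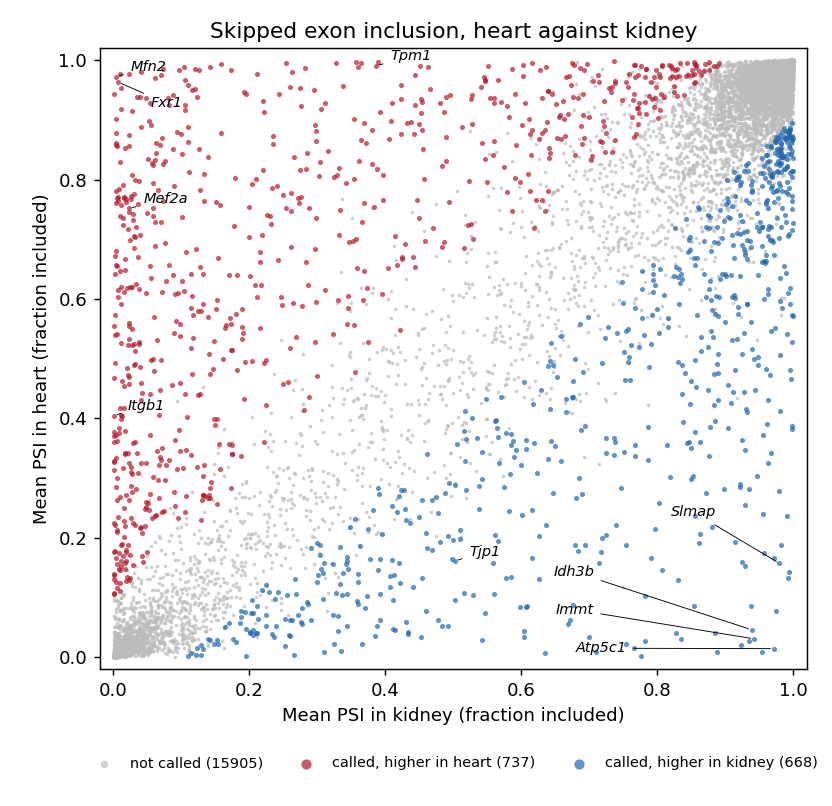
Mean PSI in kidney (x axis) against mean PSI in heart (y axis), both as a fraction from 0 to 1, for the 17310 tested events, with 737 called higher in heart in red, 668 called higher in kidney in blue and the rest in grey. Most events sit in the corner of high inclusion in both organs, and the labelled exons such as Mfn2 and Atp5c1 sit near the other corners.

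Among genes of the mitochondrion, 8 of 32 genes with a tested event had a called exon, 4 with higher inclusion in heart and 6 in kidney, 2 of them both ways. Of their 129 events 15.5% were called, against 8.12% of all events tested, and their median absolute difference was 0.00433 against 0.0106 for all events tested. Members of this and the other exon lists below were chosen with earlier results of these data known. Their shares of called events are therefore descriptions, and a share above that of all events is no test of a list. The called differences ranged from near-complete switches in Mfn2, Atp5c1 and Immt, through differences of about 0.6 in Mff and Rhot1, to differences just past 0.1 in Dnm1l, Opa1 and Ndufv3. Atp5c1 encodes the gamma subunit that turns inside ATP synthase. Its exon of 37 bp at chr2:10056770-10056806 (mm10, minus strand) had a PSI of 0.0124 and 0.0158 in heart and 0.969 and 0.974 in kidney. The difference was -0.957 (SE 0.00331, n = 2 per organ, adjusted p = 3.3e-10 by the quasi-binomial model), and the organs did not come near overlapping. Mfn2 encodes a mitofusin that joins outer membranes of neighbouring mitochondria, and its exon of 83 bp at chr4:147902928-147903010 (mm10, minus strand) moved the other way. PSI was 0.973 and 0.972 in heart and 0.00287 and 0.00439 in kidney, a difference of 0.969 (SE 0.000915, adjusted p = 1.86e-09 by the same model). This was the largest rise of all events with 50 or more reads in each library.

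Immt, a core part of the complex that shapes the cristae, skipped an exon of 105 bp in heart (chr6:71852763-71852867, mm10, plus strand). Its PSI was 0.0292 and 0.0318 in heart and 0.938 and 0.946 in kidney. Idh3b, a subunit of the NAD-dependent isocitrate dehydrogenase, is not on the exon list but ranked among the 10 largest falls. Its exon of 171 bp (chr2:130279556-130279726, mm10, minus strand) had a PSI of 0.0437 and 0.0476 in heart against 0.931 and 0.947 in kidney. Rhot1 encodes Miro1, the outer membrane GTPase that links mitochondria to motors. Its exon of 96 bp was included at 0.0397 and 0.0704 in heart and at 0.679 and 0.658 in kidney.

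Of the genes of mitochondrial fission, Mff and Dnm1l had called exons, and Fis1, Mief1, Mtfp1 and Mtfr1l did not. Mff, the receptor that recruits the fission dynamin to the outer membrane, had several alternative exons in one stretch, with higher inclusion in heart for each called event named here. An exon of 75 bp had a PSI of 0.645 and 0.593 in heart against 0.0156 and 0.0238 in kidney. An exon of 60 bp stood at 0.814 and 0.803 against 0.389 and 0.403. In the fission dynamin itself, Dnm1l, an exon of 33 bp was lower in heart, at 0.230 and 0.263 against 0.418 and 0.346. Opa1, which fuses inner membranes, had an exon of 54 bp at 0.274 and 0.272 in heart and 0.373 and 0.408 in kidney, a difference of -0.118 (SE 0.0178, adjusted p = 0.00433 by the quasi-binomial model, 0.0591 with a replicate block). Ndufv3, a small complex I subunit, has a large alternative exon of 1092 bp, included at 0.00678 and 0.00788 in heart and at 0.115 and 0.111 in kidney.

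Exons of the sarcomere, Z-disc and calcium handling genes had the highest share of called events among the exon lists, whose members were chosen as stated above. Of 27 such genes with a tested event 16 had an exon higher in heart, 8 of these also one higher in kidney, and 36.7% of their events were called against 8.12% overall. Nebl encodes nebulette, a Z-disc protein of heart. Its exon of 93 bp had a PSI of 0.985 and 0.968 in heart and of 0.0196 and 0 in kidney, where 56 reads without inclusion allow a PSI of up to 0.0275. Pdlim5, a PDZ and LIM protein of the Z-disc, included an exon of 18 bp at 0.881 and 0.875 in heart against 0.00675 and 0.00142 in kidney. Lmo7, a LIM protein at cell junctions, included an exon of 30 bp at 0.962 and 0.957 against 0.105 and 0.114. In these genes heart and kidney transcripts were nearly separate forms. Tpm1, alpha-tropomyosin, was graded instead, with an exon of 126 bp at 0.991 and 0.990 in heart and 0.384 and 0.387 in kidney. Pdlim7, a relative of Pdlim5, moved the other way at an exon of 119 bp, from 0.885 and 0.826 in kidney to 0.226 and 0.248 in heart. Bin1, an amphiphysin of the transverse tubules, had a wide spread at its exon of 129 bp, with 0.893 and 0.627 in heart and 0.289 and 0.256 in kidney (difference 0.488, SE 0.134, adjusted p = 0.0122 by the quasi-binomial model, 0.114 with a replicate block).

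The CaM kinase II genes encode calcium-dependent kinases whose variable linker decides where the enzyme sits in the cell. Camk2d, the main cardiac gene, included an exon of 42 bp at 0.719 and 0.715 in heart against 0.0345 and 0.00830 in kidney. Camk2b had an exon of 45 bp at 0.775 and 0.718 against 0.0130 and 0.0327. Camk2g had an exon of 33 bp at 0.390 and 0.359 against 0.00689 and 0.00938. All of them were higher in heart without overlap. Slc8a1 is the sodium-calcium exchanger of both tissues, used for calcium extrusion in the cardiomyocyte and for calcium reabsorption in the distal nephron. Its exon of 15 bp was included at 0.979 and 0.976 in heart and at 0.0130 and 0.0326 in kidney, a difference of 0.955 (SE 0.00990, adjusted p = 2.59e-06 by the same model).

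Regulators of transcription and RNA had called exons in both directions. Among 34 such genes with a tested event, 10 had an exon higher in heart and 11 an exon higher in kidney, and 21.0% of their events were called against 8.12% of all events. Fxr1, an RNA-binding relative of the fragile X protein, included an exon of 81 bp at 0.966 and 0.961 in heart against 0.00450 and 0.00914 in kidney. The myocyte enhancer factors Mef2a and Mef2d each have a short exon that muscle includes. For Mef2a (24 bp) PSI was 0.758 and 0.745 in heart and 0.0331 and 0.0122 in kidney. For Mef2d (21 bp) it was 0.754 and 0.780 against 0.0153 and 0.0371, so the paralogues stood at like levels in both organs. Tead1, the DNA-binding partner of Yap1, included an exon of 12 bp at 0.957 and 0.952 in heart and 0.204 and 0.344 in kidney.

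Transcripts of several splicing regulators were themselves spliced differently between the organs. Mbnl1, a muscleblind protein, had an exon of 36 bp at 0.202 and 0.207 in heart and 0.514 and 0.607 in kidney. Its paralogue Mbnl2 had an exon of 95 bp at 0.140 and 0.123 against 0.630 and 0.525. Tia1, a binder of U-rich sequence, had an exon of 66 bp at 0.0825 and 0.110 against 0.496 and 0.510. These exons were lower in heart, without overlap between organs. Another Mbnl1 exon, of 1049 bp, was higher in heart, at 0.841 and 0.898 against 0.713 and 0.592, and lost its call with a replicate block (adjusted p = 0.144). Besides the Fxr1 exon, those of Hnrnpd (57 bp, difference 0.203) and Hnrnpa1 (159 bp, difference 0.139) were called higher in heart, and one of Rbfox2 (40 bp, difference -0.292) lower.

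The list of isoforms known from epithelial cells did not move in a single direction. Of 42 genes with a tested event, 17 had an exon higher in heart, 16 one higher in kidney and 6 both, and 29.8% of their events were called against 8.12% of all events. Pard3, a polarity scaffold at the apical border, included an exon of 45 bp at 0.944 and 0.931 in kidney against 0.0969 and 0.0730 in heart. Myo6, the motor that walks toward the minus end of actin at the brush border, included an exon of 39 bp at 0.822 and 0.832 in kidney and at 0.0606 and 0.0184 in heart. Tjp1, the tight junction protein ZO-1, included the exon of 240 bp at 0.489 and 0.515 in kidney and at 0.164 and 0.158 in heart, where it was lower but not absent. In the opposite direction, Dst, a spectraplakin, included an exon of 72 bp at 0.858 and 0.853 in heart against 0.0258 and 0.0214 in kidney. Myo18a, an unconventional myosin, included one of 45 bp at 0.983 and 0.984 against 0.121 and 0.130. Itga6, a laminin receptor subunit, included one of 130 bp at 0.685 and 0.624 against 0.119 and 0.137.

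Ctnnd1, p120 catenin, which holds cadherins at the membrane, had exons moving both ways. An exon of 180 bp stood at 0.848 and 0.915 in heart and 0.262 and 0.333 in kidney. One of 18 bp stood at 0.601 and 0.465 against 0.0165 and 0.0280. One of 63 bp was higher in kidney, at 0.761 and 0.759 against 0.490 and 0.438 in heart. The receptor Fgfr2, a classic case of paired epithelial and mesenchymal exons, had a tested event only for another exon, of 78 bp, with at least 23 reads per library. It stood at 0.917 and 0.745 in heart and 0.801 and 0.732 in kidney and was not called (difference 0.0641, SE 0.0927, adjusted p = 0.922 by the quasi-binomial model).

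**Figure D2:**
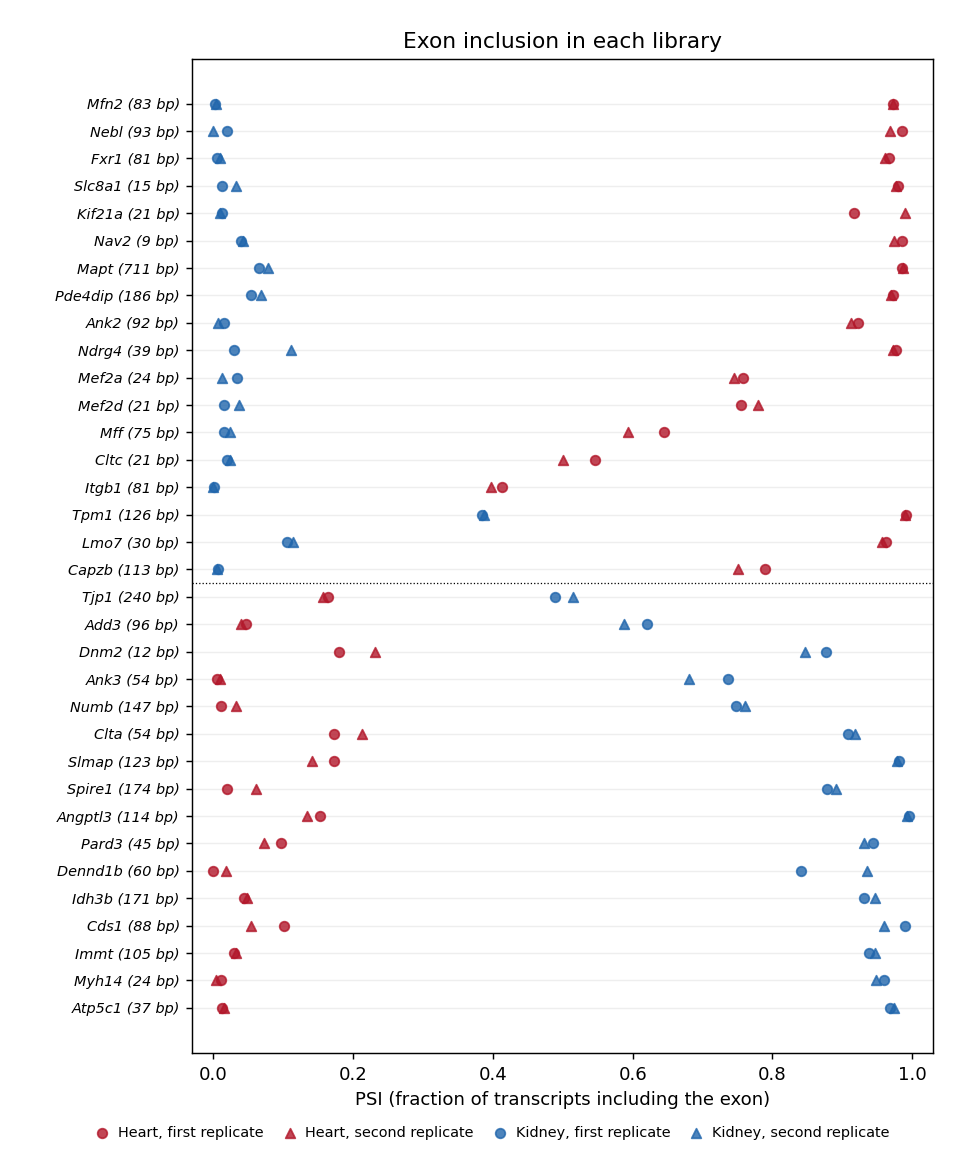
PSI (x axis, fraction from 0 to 1) of 34 named exons in each library, with exon length in bp beside the gene, heart in red and kidney in blue, circles for the first and triangles for the second listed replicate. Replicates of an organ lie close together for most exons, while Atp5c1, Immt and Idh3b lie near 0 in heart and above 0.9 in kidney and Mfn2 the reverse.

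Genes of adhesion, the cytoskeleton and membrane traffic gave the longest set of calls. Of 46 genes with a tested event 27 had an exon higher in heart and 18 one higher in kidney, 11 both, and 36.1% of the events were called, again beside 8.12% of all events. Ank2 and Ank3 encode the ankyrins that anchor ion transporters to spectrin, and the Ank3 exons went both ways. An Ank2 exon of 92 bp stood at 0.923 and 0.913 in heart against 0.0154 and 0.00685 in kidney. An Ank3 exon of 54 bp stood at 0.00555 and 0.00996 against 0.737 and 0.681. Another Ank3 exon, of 12 bp, was higher in heart, at 0.794 and 0.830 against 0.168 and 0.0561. Sptan1, alpha-spectrin, included an exon of 63 bp at 0.377 and 0.365 in heart and at 0.000583 and 0.00128 in kidney. Capzb, which caps actin filaments and lies at the Z-disc, had an exon of 113 bp at 0.789 and 0.750 against 0.00669 and 0.00451. Itgb1, the beta1 integrin, included an exon of 81 bp at 0.413 and 0.397 in heart, while in kidney it stood at 0.000207 and 9.38e-05 (difference 0.405, SE 0.00786, adjusted p = 8.57e-09 by the quasi-binomial model). Vcl, which links integrins to actin, had 1 tested event, at an exon of 129 bp, which was not called and differed by 0.00219 (adjusted p = 0.871).

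Exons of endocytic genes differed in both directions. Clta, a clathrin light chain, included an exon of 54 bp at 0.909 and 0.918 in kidney and at 0.173 and 0.212 in heart. Picalm, a clathrin assembly protein, included one of 24 bp at 0.952 and 0.942 against 0.313 and 0.293. Dnm2, the dynamin that cuts vesicles free, included one of 12 bp at 0.877 and 0.847 against 0.180 and 0.231. Numb, an endocytic adaptor that antagonises Notch, included one of 147 bp at 0.748 and 0.761 against 0.0105 and 0.0327. These were higher in kidney. Cltc, the heavy chain, included an exon of 21 bp at 0.546 and 0.50 in heart and at 0.0189 and 0.0237 in kidney. Ap2a1, an adaptor subunit, included one of 66 bp at 0.690 and 0.653 against 0.00341 and 0.00234. Both were higher in heart. The largest differences in Cltb, the other light chain, at -0.00286, and in Itsn1, an endocytic scaffold, at -0.0784, were not called. Snap23, a SNARE of vesicle fusion, included an exon of 33 bp at 0.342 and 0.315 in heart, and in kidney at 0.00172 in the second listed replicate and 0 in the first, where 1424 reads allow up to 0.00148.

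In metabolism and signalling, 25 of 38 genes had a called exon, 20 higher in heart and 12 higher in kidney, and 28.7% of their events were called, where all tested events gave 8.12%. Ppip5k1, an inositol pyrophosphate kinase, included an exon of 126 bp at 0.970 and 0.974 in kidney against 0.142 and 0.191 in heart. Ppp3ca, the calcineurin catalytic subunit, included one of 30 bp at 0.648 and 0.637 in heart against 0.00200 and 0.00192 in kidney. Map3k7, the kinase TAK1, included one of 137 bp at 0.836 and 0.863 in kidney and 0.293 and 0.303 in heart. Outside the lists, Myh14, a nonmuscle myosin heavy chain, had an exon of 24 bp at 0.959 and 0.948 in kidney against 0.0113 and 0.00442 in heart. Mapt, the microtubule protein tau, had one of 711 bp at 0.985 and 0.987 in heart against 0.0660 and 0.0784 in kidney.

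Short exons stood out among the gains of heart. Of the 665 exons higher in heart, 86 (12.9%, exact 95% interval 10.5 to 15.7%) were no longer than 30 bp. The share was 3.25% for the 584 higher in kidney (19 exons, 1.97 to 5.03%) and 2.40% for all 15815 tested (2.17 to 2.65%). Examples are the exons of Slc8a1 (15 bp), Kif21a (21 bp), Nav2 (9 bp), Pdlim5 (18 bp) and Mef2d (21 bp) in heart and of Myh14 (24 bp), Picalm (24 bp) and Dnm2 (12 bp) in kidney. In Kif21a, a kinesin, PSI was 0.916 and 0.990 in heart and 0.0131 and 0.00971 in kidney. Nav2, a neuron navigator gene, stood at 0.986 and 0.975 against 0.0402 and 0.0419 for its 9 bp. Exon length was divisible by 3, which keeps the reading frame where the exon is coding, for 71.9% of the exons higher in heart (68.3 to 75.3%), 61.6% of those higher in kidney (57.6 to 65.6%) and 43.1% of all tested (42.4 to 43.9%). These intervals cover counting error only, and exons of a gene are not independent.

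The F1 cross gives each switch a second reading, since reads that cover a strain difference can be assigned to the C57BL/6J or the SPRET/EiJ allele in the same nucleus. Allelic reads come from the same libraries, so this is a description and not a further replicate. The exons were also called from total reads that include the allelic reads, so a like sign on both alleles is in part built in. The share among uncalled exons was not taken. The study kept for its allelic analyses only events whose PSI was alike with and without unassigned reads. That filter was not applied here, and some exons differ between the readings. The Actg1 exon of 45 bp differed by 0.162 over all reads, but by 0.872 on the C57BL/6J and 0.552 on the SPRET/EiJ allele. Of 846 called exons with 20 or more reads per allele in all 4 libraries, 809 (95.6%, exact 95% interval 94.0 to 96.9%) had a heart minus kidney difference of the same sign on both alleles, and 609 (72.0%) also differed by at least 0.1 on both. For the 438 exons higher in heart the median difference was 0.317 on the C57BL/6J allele and 0.322 on the SPRET/EiJ allele. For the 408 higher in kidney the medians were -0.203 and -0.198. The size of the tissue difference was thus alike on both alleles at the median.

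Of the 846 exons, 197 (23.3%, 20.5 to 26.3%) differed by at least 0.1 on 1 allele and by less on the other, and in 33 of these the differences on the alleles lay at least 0.3 apart. A pair of examples was chosen after their values were seen. The Mff exon of 75 bp stood at 0.0671 and 0.0438 in heart on the C57BL/6J allele and at 0.804 and 0.793 on the SPRET/EiJ allele. In kidney the same exon stood at 0.00522 and 0.00283 against 0.0291 and 0.0463. Most of the heart inclusion in Mff therefore came from the SPRET/EiJ allele. There the organs differed by 0.760 and not by the 0.0514 of the C57BL/6J allele, with at least 144 allelic reads per library. The event of this exon counted among the 846 has other flanking exons. On it kidney also included the exon on the SPRET/EiJ allele, at 0.318 and 0.281 from 52 and 64 reads, against 0.996 and 0.983 in heart. The organs differed there by 0.690 on the SPRET/EiJ and 0.0519 on the C57BL/6J allele. In Rmnd1, needed for translation in mitochondria, the reverse held. Its exon of 97 bp stood at 0.778 and 0.846 in heart on the C57BL/6J allele and at 0.0326 and 0.0269 on the SPRET/EiJ allele, while in kidney the C57BL/6J values were 0.0153 and 0.0234. The difference between alleles was not tested.

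Other tissues of the same cross place these values. For each called exon with enough reads, the mean PSI of a tissue was set beside the heart and the kidney mean. Cortex lay nearer to heart in 61.3% of 1196 exons (58.5 to 64.1%), with 66.6% of those higher in heart and 55.3% (51.0 to 59.5%) of those higher in kidney. Embryonic stem cells lay nearer to heart in 29.3% of 1112 exons, lung in 29.2% of 1165, spleen in 23.8% of 1114 and liver in 11.4% of 1008. Mef2d shows the cortex pattern, with a PSI of 0.930 and 0.968 in cortex and 0.0626 and 0.0720 in lung. The Kif21a exon did likewise, at 0.904 and 0.925 in cortex and 0.0573 and 0.00746 in lung. The exons of Atp5c1 and Mfn2 did not share it. Atp5c1 stood at 0.931 and 0.946 in cortex, 0.656 and 0.718 in lung, 0.959 and 0.962 in spleen and 0.970 and 0.974 in liver, so that heart, near 0, was the lowest of the tissues measured. The Mfn2 exon stood at 0.0307 and 0.0307 in cortex and 0.116 and 0.115 in lung, and heart alone was above 0.9. In cortex the Idh3b exon stood at 0.974 and 0.956 and the Immt exon at 0.670 and 0.738, nearer to kidney. The Rhot1 exon stood in cortex at 0.316 and 0.369, about midway between heart and kidney. The Tjp1 exon that kidney included was included more still in liver, at 0.721 and 0.786.

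Switches that are complete in an organ are missing from this comparison. Each table lists an event only if both forms had at least 1 read over the 2 replicates, so an exon always included in heart and always skipped in kidney is in neither, and low expression also removes events. Of 25168 autosomal heart events with 20 reads, 7516 were absent from the kidney table, and of 36610 kidney events 18773 were absent from the heart table. Slc25a3, the mitochondrial phosphate carrier, is known for a pair of mutually exclusive exons. The exon tested in both organs was another, of 173 bp, included in nearly all reads of both, with a difference of 5.6e-05. Ldb3, a Z-disc PDZ protein, passed 20 reads in the heart table alone, where an exon of 186 bp had a PSI of 0.810 and 0.856 from 6997 and 6599 reads.

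Gene expression also separated the organs. With limma on log2(TPM + 0.1), 2028 genes (12.8% of those tested) were called higher in heart and 4702 (29.8%) higher in kidney at an adjusted p under 0.05 and a log2 difference of at least 1, 42.6% in all. This split depends on scaling, since TPM are shares of a library. The median gene was at -0.40 log2 as deposited and at -0.01 after median ratio scaling, with which 2894 genes (18.4%) were higher in heart and 3443 (21.8%) higher in kidney. All log2 values below are heart minus kidney as deposited and are to be read against the median of -0.40. Without kidney replicate 2 the lists below kept their counts to within 1 gene in each direction. Members of these lists were also chosen with earlier results of these data known, so their counts are descriptions.

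Contractile genes were called without exception. All 35 sarcomere genes were called higher in heart, as were 12.8% of all genes (18.4% after median ratio scaling), with a median log2 difference of 9.20. Mb, myoglobin, the oxygen store of muscle, stood at 24680 and 23779 TPM in heart and at 0.126 and 0.0780 TPM in kidney. Myh6, the alpha myosin heavy chain, stood at 12122 and 11969 TPM against 0.189 and 0.239 TPM. Tnnt2, cardiac troponin T, stood at 17772 and 17701 TPM against 1.15 and 0.796 TPM. Of 30 genes of calcium handling and excitation 28 were called higher in heart. Atp2a2, the SERCA2 pump that refills the sarcoplasmic reticulum, was also found in kidney, at 209 and 215 TPM against 7201 and 7538 TPM. Its inhibitor Pln was at 3738 and 3974 TPM in heart and 3.48 and 3.07 TPM in kidney. The exceptions were Scn4b, a sodium channel beta subunit, at 8.83 and 12.6 TPM in heart against 35.8 and 32.2 TPM in kidney, and Fkbp1b, the calstabin of the ryanodine receptor, at 0.950 and 1.12 against 3.39 and 3.09 TPM.

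The nephron lists were their mirror image. All 30 proximal tubule genes and all 30 genes of the loop of Henle, distal tubule and collecting duct were called higher in kidney, beside 29.8% of all genes (21.8% after median ratio scaling), with median log2 differences of -10.29 and -8.65, or -10.10 and -8.74 when genes listed at 0 in both hearts are left out. Kap reached 46098 and 51208 TPM in kidney and 0.0566 and 0.0974 TPM in heart. Slc34a1, the phosphate transporter of the brush border, stood at 2864 and 2922 TPM against 0.0186 and 0.0192 TPM. Umod, uromodulin of the thick ascending limb, stood at 6113 and 5972 TPM against 0.0279 and 0.0192 TPM. Hnf4a, the nuclear receptor that maintains the proximal tubule, was listed at 0 in both hearts.

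Junction genes were mostly but not wholly epithelial. Of 34 genes, 27 were called higher in kidney and 3 higher in heart (27 and 4 after median ratio scaling), beside 29.8% and 12.8% of all genes (21.8% and 18.4%). Among those higher in kidney was Cdh16, the kidney cadherin, at 1381 and 1230 TPM against 0.199 and 0.410 TPM in heart. The 3 called higher in heart are parts of the desmosome, which also holds cardiomyocytes together at the intercalated disc. Dsp, desmoplakin, the most abundant of them at 298 and 316 TPM in heart, had a log2 difference of 3.96. Pkp2, plakophilin, stood at 89.4 and 82.6 against 15.6 and 15.5 TPM, and Dsg2, a desmosomal cadherin, at 38.8 and 39.0 against 12.7 and 11.7 TPM. Tjp1, whose exon changed, was not called, with a log2 difference of 0.16 (SE 0.09, adjusted p = 0.159 by limma).

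**Figure D3:**
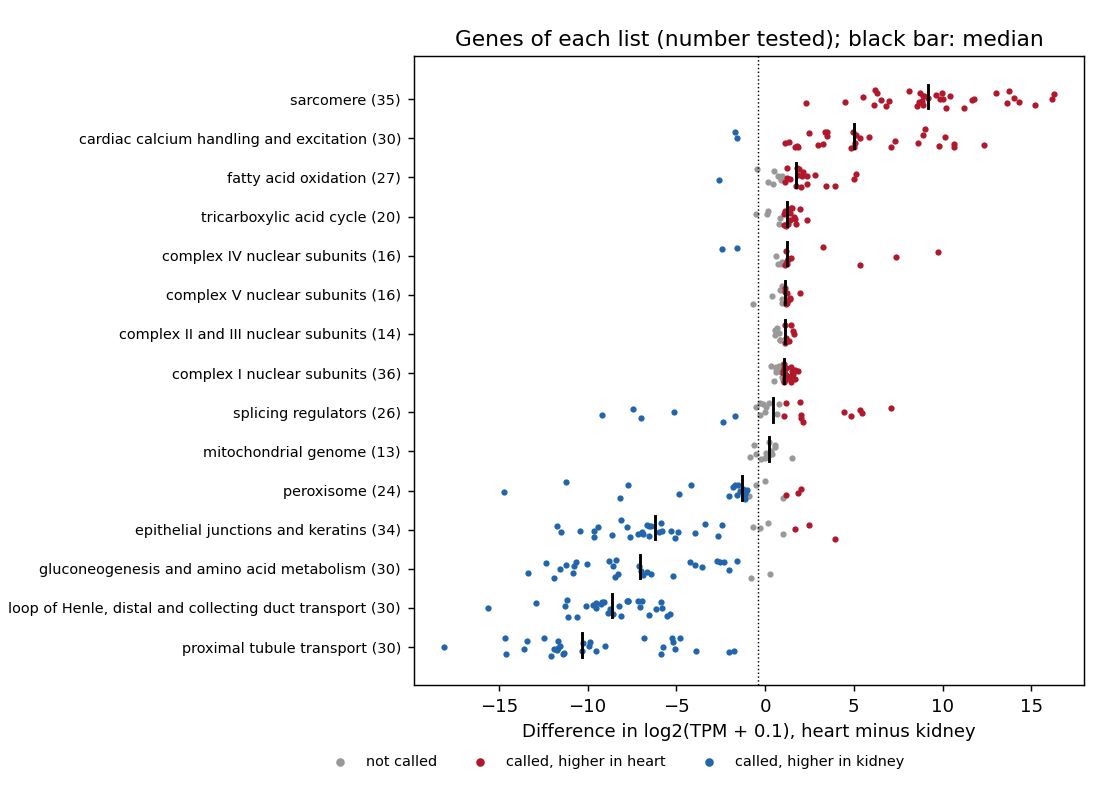
Log2 difference in expression, heart minus kidney on the log2(TPM + 0.1) scale (x axis), for each tested member of 15 gene lists (points, red where called higher in heart, blue where called higher in kidney and grey where not called), with a black bar at the median of each list and the dotted line at the median of all genes, -0.40. The sarcomere list lies far to the heart side and the nephron lists far to the kidney side, the nuclear respiratory lists lie near 1, and genes listed at 0 in an organ are drawn at the value the pseudocount gives.

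The respiratory chain was shifted by a much smaller step. Beside the 12.8% of all genes called higher in heart and 29.8% higher in kidney (18.4% and 21.8% after median ratio scaling), the counts were as follows. In complex I 24 of 36 nuclear genes were called higher in heart and none was called lower (33 higher after median ratio scaling), with a median log2 difference of 1.09. For complexes II and III 8 of 14 were called higher and none lower (median 1.13), for complex IV 10 of 16 higher and 2 lower (1.22), and for complex V 10 of 16 higher and none lower (1.15). After median ratio scaling the counts called higher were 12 for complexes II and III, 14 for complex IV and 14 for complex V. Those not called spread from -0.65 for Atpif1, an inhibitor of ATP synthase, and 0.32 for Ndufb6 to values just under the size limit such as 0.98 for Atp5b. Uqcrc1, a core subunit of complex III, stood at 1978 and 1874 TPM in heart and 642 and 603 TPM in kidney. Atp5b, the catalytic beta subunit of ATP synthase, stood at 3896 and 3708 TPM against 1998 and 1859 TPM, a log2 difference of 0.98 (SE 0.07) that missed the limit of 1. Atp5c1, whose exon switched, rose by 1.16 in log2. The 2 lower in heart were Cox8a and Cox6a1, which have muscle counterparts.

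Transcripts of the mitochondrial genome itself were not called in either direction. Its 13 protein genes made up 18.5% and 18.2% of all TPM in heart and 16.8% and 14.9% in kidney. mt-Co1, the catalytic core of complex IV, stood at 65990 and 65384 TPM in heart and 55771 and 49063 TPM in kidney (log2 difference 0.33, SE 0.21, adjusted p = 0.212 by limma). The smallest adjusted p among the 13 was 0.033, for mt-Nd6, at a log2 difference of -0.53, under the size limit, followed by 0.0352 for mt-Nd5, at 0.55. Several of these genes carried low and erratic values, such as mt-Co2 at 104 and 894 TPM in heart and 279 and 159 TPM in kidney, and the cause was not tested. Without kidney replicate 2, 1 of the 13 was called, as higher in kidney, and without kidney replicate 1, 2 were called, as higher in heart.

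Genes of fuel use differed between the organs, again beside 12.8% of all genes called higher in heart and 29.8% higher in kidney (18.4% and 21.8% after median ratio scaling). In the tricarboxylic acid cycle 15 of 20 genes were called higher in heart and none lower. Cs, citrate synthase, stood at 1632 and 1577 TPM against 324 and 308 TPM. In fatty acid oxidation 18 of 27 were called higher in heart (17 without kidney replicate 2). Fabp3, the heart fatty acid binding protein, stood at 6517 and 6778 TPM against 200 and 178 TPM. Cpt1a, the liver-type carnitine palmitoyltransferase, was the only one called lower, at 36.4 and 43.6 TPM in heart and 245 and 244 TPM in kidney. Peroxisomal genes went the other way, with 17 of 24 called higher in kidney and 3 higher in heart, or 12 and 4 after median ratio scaling. Hao2, a hydroxyacid oxidase, stood at 2818 and 2724 TPM in kidney, and was listed at 0 in heart replicate 1 and at 0.00594 TPM in heart replicate 2. Crat, carnitine acetyltransferase, was higher in heart at 352 and 354 TPM against 85.3 and 86.5 TPM. Gluconeogenic and amino acid genes were called higher in kidney in 28 of 30 cases. Ass1, which makes argininosuccinate for arginine synthesis, stood at 1362 and 1576 TPM in kidney and 3.49 and 4.09 TPM in heart.

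Pairs of related isoforms were compared by the share of 1 member in their summed TPM. The pairs were chosen with earlier results of these data known. The first member is the form known from muscle in most pairs, but not in all: Got1 and Got2 are the cytosolic and the mitochondrial form, Tnni2 is itself a form of fast skeletal muscle, and Ampd3 is not the muscle AMP deaminase. In 29 of 29 pairs the first member took a larger share of the pair's TPM in both hearts than in either kidney, and in 22 the major member by the organ mean changed, in 21 of them in every library. The exception was Tnni3, at 41.4% and 54.2% of its pair with Tnni2 in kidney, where both were under 0.5 TPM. The first member was called higher in heart in 26 pairs and its partner called lower in 20, with both in 17 (16 after median ratio scaling), beside 12.8% of all genes higher in heart and 29.8% lower. Tnni2 and Got2 were partners called higher in heart, by 2.21 and 1.56 in log2. Cox6a2, the muscle form of a small complex IV subunit, made up 97.0% and 96.8% of its pair with Cox6a1 in heart and 0.622% and 0.715% in kidney. Slc25a4, the muscle ATP/ADP carrier, made up 93.7% and 92.7% of its pair with Slc25a5 in heart and 19.1% and 20.5% in kidney. Cpt1b made up 89.9% and 87.9% of its pair with Cpt1a in heart and 8.31% and 7.13% in kidney. In these 3 pairs the major member differed between the organs.

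Other pairs shifted through a single member or very little. Cox7a1 made up 70.9% and 70.9% of its pair with Cox7a2 in heart and 8.16% and 8.76% in kidney, but Cox7a2 was not lower in heart, at 1281 and 1266 TPM against 850 and 787 TPM. Ldhb, the lactate dehydrogenase subunit of oxidative tissue, was the major form in both organs, at 88.2% and 88.1% in heart and 77.1% and 77.6% in kidney. Got1 differed least, at 61.0% and 62.2% against 57.8% and 56.1%. Fbp2, the muscle fructose bisphosphatase, was not higher in heart, at 52.4 and 51.8 TPM against 81.8 and 71.7 TPM, while its partner Fbp1 was called lower in heart and stood at 1130 and 1143 TPM in kidney. Ckb, the brain-type creatine kinase, had a log2 difference of -0.29 that was 0.10 after median ratio scaling.

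**Figure D4:**
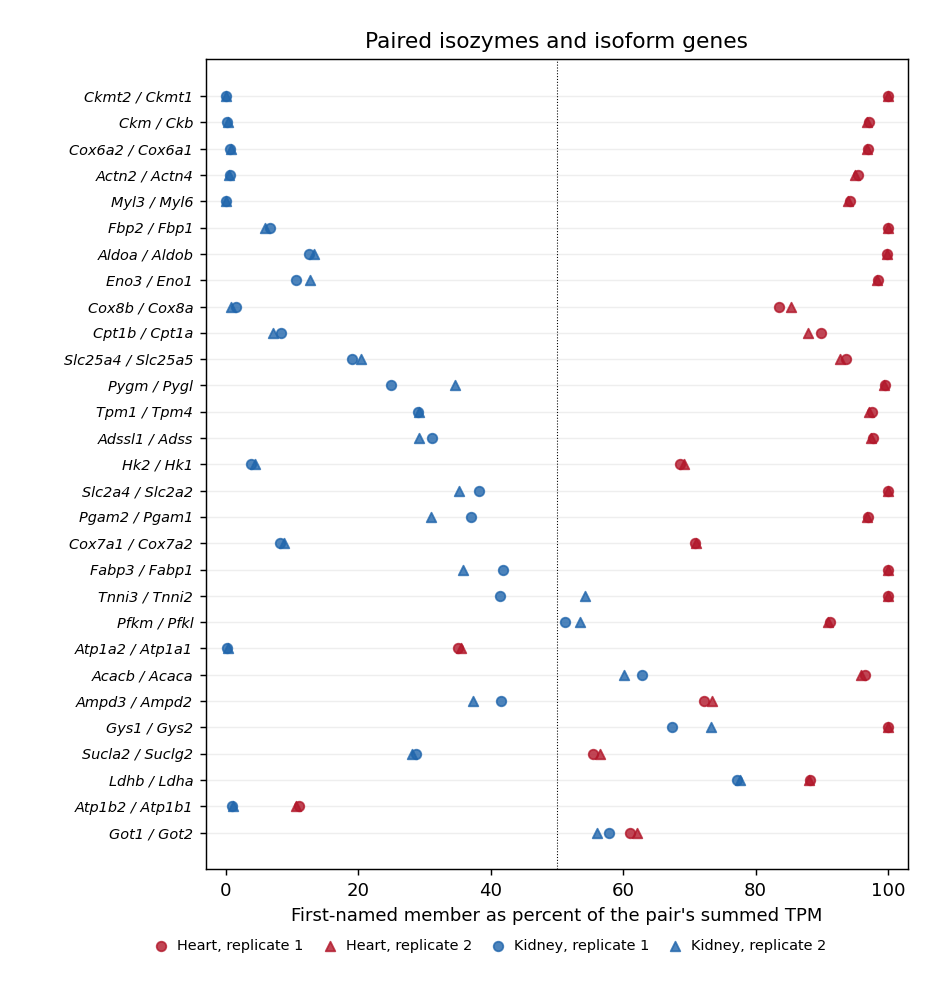
Share of the first member in the summed TPM of each of 29 pairs (x axis, percent), with heart libraries in red and kidney libraries in blue. Every pair has both heart libraries to the right of both kidney libraries, from wide gaps such as Cox6a2 to the narrow gap of Got1.

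Splicing regulators themselves differed in expression. Of 26 splicing regulators tested 11 were called higher in heart and 6 higher in kidney (13 and 6 after median ratio scaling), with a median log2 difference of 0.43. Among all genes 12.8% were called higher in heart and 29.8% higher in kidney. Rbm20, the regulator of titin splicing, stood at 159 and 139 TPM in heart and 3.82 and 3.38 TPM in kidney. Rbm24, a muscle regulator needed for sarcomere exons, stood at 145 and 143 TPM against 0.874 and 0.995 TPM. Rbfox1 stood at 27.7 and 27.9 TPM against 0.965 and 0.814 TPM. Srrm4, known as an activator of short exons in neurons, stood at 13.2 and 11.9 TPM in heart against 0.160 and 0.218 TPM in kidney. The others called higher in heart were Fxr1, Rbm38, Qk, Rbfox2, Celf2, Nova1 and Nova2, with log2 differences from 1.06 for Nova2 to 4.46 for Rbm38. Nova1 and Nova2 were not called with a pseudocount of 1, nor was Nova2 without heart replicate 1.

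The 6 higher in kidney were of epithelial kind or of the PTB family. Esrp1, the epithelial splicing regulator, was listed at 0 in both hearts and stood at 12.6 and 12.1 TPM in kidney. Its paralogue Esrp2 stood at 1.02 and 0.952 TPM in heart against 38.9 and 37.7 TPM. Rbm47 stood at 0.191 and 0.387 TPM against 66.1 and 65.1 TPM, and A1cf, a partner in mRNA editing in liver and gut, at 0.00300 and 0.00309 against 62.4 and 57.5 TPM. Ptbp1, a repressor of many tissue exons, stood at 31.4 and 32.2 TPM in heart and 104 and 103 TPM in kidney, and Ptbp3 at 4.93 and 6.09 against 31.3 and 27.0 TPM. Mbnl1 and Mbnl2, whose own exons moved, were not called, at log2 differences of 0.21 and 0.65, though Mbnl2 passed after median ratio scaling at 1.04. Khdrbs3 was likewise uncalled at 0.80 and passed at 1.18. Celf1 (0.05), Elavl1 (0.02) and Srsf10 (-0.52) were not called by either scaling. Ptbp2 (-0.30), Tia1 (-0.14) and Tial1 (-0.29) were not called and turned to 0.08, 0.24 and 0.09 after median ratio scaling.

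**Figure D5:**
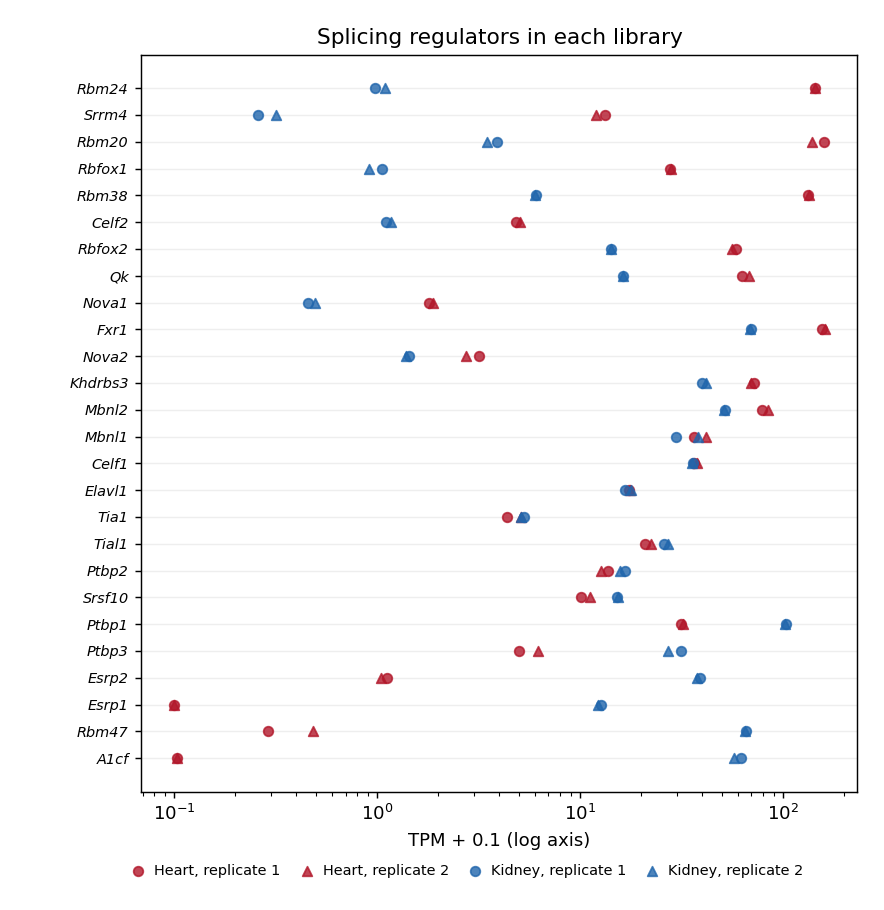
Expression of 26 splicing regulators in each library, as TPM + 0.1 on a log axis, heart in red and kidney in blue. Rbm24, Rbm20 and Rbfox1 lie higher in heart, Rbm47, A1cf, Esrp2 and Esrp1 lie higher in kidney, and genes such as Celf1 and Elavl1 coincide.

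Genes with a changed exon were called in expression about as often as genes with tested events and no changed exon. Of the 967 genes with a called event, 347 (35.9%, exact 95% interval 32.9 to 39.0%) were also called in expression, against 2050 of 6063 (33.8%, 32.6 to 35.0%). Genes whose called exons were all higher in heart were called higher in heart in 17.6% of 443 cases and higher in kidney in 17.2%. Genes whose called exons were all higher in kidney were called higher in heart in 7.41% of 432 cases and higher in kidney in 27.5%, beside 10.6% and 23.5% for genes with any tested event.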

How the data were processed

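Reads were aligned by the authors with HISAT2 (version 2.0.1) to the C57BL/6J reference (mm10) and the SPRET/EiJ genome, and skipped exons were counted with rMATS within each tissue. The deposited junction read counts, as total and allelic tables, list both replicates of a tissue without a replicate number. TPM were computed by the authors per gene and deposited for each replicate. Here PSI was the inclusion count over its effective form length, divided by the sum of that and the skipping count over its own length. Events were joined on all exon coordinates and kept on autosomes with 20 or more reads in all 4 libraries, and called at an adjusted p under 0.05 and a PSI difference of at least 0.1. Counts were fitted with a quasi-binomial model whose dispersions, held at 1 or above, were moderated with limma (version 3.58.1, R 4.3.3). The SE of a PSI difference comes from the replicate values. Genes were tested with limma on log2(TPM + 0.1), and p-values were adjusted by Benjamini-Hochberg over all features. Joining, counts and figures used Python 3.11.15, numpy 2.4.6, pandas 2.3.3, scipy 1.17.1 and matplotlib 3.10.9.

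On simulated counts for the 17310 events, 200 of them changed, 77% of differences of 0.2 and 92% of 0.4 were recovered. For the 15803 genes, again with 200 changed, 97.5% of changes were recovered, with 5.80% of calls false. Both simulations drew their spread from the fitted models, so they cannot show whether those models hold for the data. Exons named were the 10 largest rises and falls with 50 or more reads, the largest called event of listed genes at 0.3 or more, and a fixed set shown whatever its values, of which examples are given. Genes named were the 8 largest changes each way at 50 TPM or more, the most abundant and the contrary members of each list, isozyme members and splicing regulators. Dnm1l, Ndufv3, Rmnd1, Hnf4a, mt-Co2, mt-Nd6 and the adrenal genes fall outside these rules and were named after their values were seen. The members and lists were chosen with earlier results of these data known. Alternatives were another read minimum, a filter on PSI near 0 or 1, a logit model, a replicate block, other scalings, pseudocounts and filters for TPM, and leaving out each library. Motifs beside exons were not analysed here. Intervals cover counting error only, and reads carry no molecular identifiers.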

Additional observations from a re-analysis of the deposited data

Results flagged for a closer look

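In Yap1, the Hippo pathway coactivator, an exon of 48 bp moved in opposite directions on the alleles, with every library of one organ apart from the other on each allele. On the C57BL/6J allele PSI was 0.403 and 0.339 in heart and 0.518 and 0.425 in kidney. On the SPRET/EiJ allele it was 0.596 and 0.611 in heart and 0.456 and 0.345 in kidney. The heart minus kidney difference on the C57BL/6J allele was lower than that on the SPRET/EiJ allele by an amount of -0.303, with 26 to 84 allelic reads behind each value. Over all reads the difference was -0.127, which lies outside the range of the allelic differences of -0.100 and 0.203. The allelic values of this exon therefore do not account for its value over all reads. The difference between alleles was not tested. In all, 37 called exons did not have the same sign on both alleles, some of them with a difference of 0 on 1 allele. Among these the Yap1 exon was the only one with a difference of at least 0.1 on both alleles and replicates apart.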

How the results depend on the processing

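With 2 libraries per organ, exons of genes low in an organ rest on few reads, and leaving out a library leaves 1 that is assumed to vary like the others. Limma on logit PSI over all events called 0 events in heart and 0 in kidney (smallest adjusted p 0.0523), against 689 and 604 at an unadjusted p under 0.05 and past the size limit, and 687 and 625 adjusted once events near a PSI of 0 or 1 were left out. A minimum of 50 reads gave 668 and 630. A replicate block by list position gave 518 and 358 events, and 2042 and 4734 genes. Replicate differences of the organs correlated at 0.0525 over 4030 events and 0.106 over 15803 genes, and although the organs came from 2 animals no source ties the numbers to them, so the numbers were not taken as pairs in the main comparison, and under the block the exons of Bin1, Opa1, Bptf, Git2 and Mbnl1 (1049 bp) lost their calls. Leaving out each library gave 667 to 818 events higher in heart and 537 to 812 higher in kidney, and 1910 to 2108 and 4304 to 5007 genes. A mean of at least 10 TPM tested 9427 genes and called 1216 and 2565, and no filter called 2621 and 6438. After median ratio scaling the log2 differences of Ckb (0.095), Ptbp2 (0.080), Tia1 (0.24), Tial1 (0.088) and Tpm4 (0.037) turned positive. Without single libraries, uncalled values ranged through 0 for Fgfr2 (-0.0219 to 0.150), Vcl (-0.00192 to 0.00630) and Slc25a3 (-2.7e-05 to 0.000139) in PSI, and for Elavl1 (-0.035 to 0.075) and mt-Cytb (-0.019 to 0.067) in log2. The share of called exons with the same sign on both alleles, 95.6% from all 4 libraries, ranged from 93.4% to 95.4% when each library was left out and was 96.6% at a minimum of 50 reads per allele. The causes were not tested. A pseudocount of 1 ended the calls of Nova1 and Nova2, and Nova2 also lost its call without heart replicate 1.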
